A study of Mus musculus with 6 samples.

Results

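The 9 genes described here were selected by name from the count and FPKM tables of a study of mouse CD4+ T cells, because they encode factors, cytokines and receptors by which type 17 helper T cells (Th17 cells) are commonly recognised. They were Rora, Il17a, Il17f, Il22, Il23r, Il1r1, Ccr6, Il6ra and Il6st, and all 9 were found among the 21362 gene names of both tables. The study sequenced RNA of 6 libraries and concerned regulatory T cells treated with sorafenib, a kinase inhibitor used against liver and kidney cancer, and cells without it. For a library the labels state only a number and the cell type. They name no treatment, strain, age, sex or culture for any library, so no library was placed in a group and no treated cells were compared with untreated ones. Libraries are called 1 to 6 as their titles number them, and values given in a row are in that order. Nothing says whether separate mice or cultures were used, and every interval below covers counting error only. An interval for the ratio of a gene's highest to its lowest library does not allow for these having been picked by their values.

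Th17 cells are helper T cells that recruit neutrophils and guard mucosal surfaces against bacteria and fungi. Naive CD4+ T cells take on this fate when transforming growth factor beta and interleukin 6 act together, and interleukin 1 and interleukin 23 then sustain it. The receptor for interleukin 6 is a ligand-binding chain (Il6ra) with the shared signalling chain gp130 (Il6st), which activates STAT3. The nuclear receptor ROR-alpha (Rora) is among the factors that drive transcription of Il17a and Il17f, the neighbouring genes of the signature cytokines. Regulatory T cells share part of this programme, since transforming growth factor beta is used by both fates and interleukin 6 tips the balance between them.

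The sequences just upstream of 4 of the genes are shown as 2 pairs whose products act together: the cytokine genes Il17a and Il17f, which had few or no reads, and the receptor chain genes Il6ra and Il6st, which were well expressed. The promoter table of RefSeq, on the build GRCm38.p6, held entries for all 9 genes. The authors' reads were aligned to another build, GRCm39, per the submitters' processing notes, so the coordinates here belong to GRCm38.p6 only. The sequences run 5' to 3' on the gene's own strand and end 1 base before the annotated start. They lie at chr1:20730655-20730904 (plus strand) for Il17a, chr1:20784271-20784494 (minus strand) for Il17f, chr3:89913197-89913446 (minus strand) for Il6ra and chr13:112463820-112464069 (plus strand) for Il6st. All of the printed bases are outside the exons that GENCODE M21 annotates for the same gene, and exons of other genes were not checked. The stretch of Il17f has 224 bases instead of 250, because the rest overlaps an exon that GENCODE M21 annotates for Il17f. Capitals mark matches, on either strand, to 4 motifs: AGGTCA (the half-site bound by ROR proteins), TTCNNNGAA (STAT proteins), TGANTCA (AP-1) and TATAAAA (the TATA box).
Il17a: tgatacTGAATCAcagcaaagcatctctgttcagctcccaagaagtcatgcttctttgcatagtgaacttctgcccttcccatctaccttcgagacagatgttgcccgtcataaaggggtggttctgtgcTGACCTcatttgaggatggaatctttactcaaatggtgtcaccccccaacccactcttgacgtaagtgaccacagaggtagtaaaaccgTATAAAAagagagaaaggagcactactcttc
Il17f: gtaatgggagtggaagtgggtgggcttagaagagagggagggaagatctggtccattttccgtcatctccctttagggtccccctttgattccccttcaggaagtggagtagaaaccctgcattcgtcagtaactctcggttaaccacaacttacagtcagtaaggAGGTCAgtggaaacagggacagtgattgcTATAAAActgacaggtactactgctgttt
Il6ra: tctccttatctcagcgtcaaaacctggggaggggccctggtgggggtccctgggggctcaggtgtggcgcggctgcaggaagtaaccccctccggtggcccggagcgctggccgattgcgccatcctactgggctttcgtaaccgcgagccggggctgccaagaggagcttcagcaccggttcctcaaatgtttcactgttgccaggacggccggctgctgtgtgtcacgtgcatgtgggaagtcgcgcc
Il6st: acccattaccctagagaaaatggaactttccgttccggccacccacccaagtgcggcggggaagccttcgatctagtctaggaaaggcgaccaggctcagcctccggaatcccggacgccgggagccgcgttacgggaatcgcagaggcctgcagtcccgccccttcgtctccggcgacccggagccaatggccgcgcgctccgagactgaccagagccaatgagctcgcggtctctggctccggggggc

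Il17a and Il17f each held 1 AGGTCA match and 1 TATAAAA match. In Il17a the AGGTCA match lay 120 bases before the start, on the opposite strand, and in Il17f it lay 58 bases before the start on the gene's strand. The TATAAAA matches lay 31 and 29 bases before the start. Il17a also held 1 TGANTCA match. The windows of Il6ra and Il6st held no match to any of the 4 motifs, which says only that these letters are not in these windows. Their GC content was 65.2% and 66.0%, against 46.0% and 48.2% for Il17a and Il17f. Of all 32851 promoters in the table, 14.0% held AGGTCA in the 250 bases before the start, 7.02% TTCNNNGAA, 6.75% TGANTCA and 4.98% TATAAAA. Outside the printed stretches, AGGTCA was matched 2 times before Il23r and 1 time before the upstream of the 2 starts of Ccr6, which also held 2 TTCNNNGAA matches. A TATAAAA match lay 170 bases before the start of Il22. These matches are descriptions of sequence and were not tied to expression.

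The 9 genes were divided by a set mean level into 4 above it and 5 below it, which were near the limit of detection. Levels of a gene between libraries are given as CPM, read counts scaled to library size, after a TMM correction for library composition. Genes averaging 1 CPM or more are called measured genes below. Il6st, Rora, Il6ra and Il1r1 met this level, and Il17a, Il17f, Il22, Il23r and Ccr6 did not. Il1r1 was close to the cut, at a mean of 1.36 CPM from 23 to 72 reads. Between genes, levels were compared per length, in the FPKM that the authors deposited (reads per kilobase of gene and library depth). The medians over libraries were 10.4 FPKM for Il6ra, 9.59 for Il6st, 0.953 for Rora, 0.213 for Il1r1, 0.121 for Il22, 0.116 for Il17f, 0.0586 for Ccr6, 0.0523 for Il23r and 0.0248 for Il17a. Il6ra and Il6st overlapped in their ranges over libraries, at 7.56 to 13.5 and 8.03 to 11.4 FPKM. Rora, at 0.772 to 1.01 FPKM, lay below both and above every other member. Il1r1, at 0.109 to 0.362 FPKM, overlapped Il22, Il17f, Il23r and Il17a in range, and these 4 genes and Ccr6 overlapped each other.

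The places of several members in that order, Rora above all, depended on the gene length used. The counts and FPKM of Rora imply a length of 51763 bases, whereas its longest transcript in GENCODE M21 has 10878. For Il6ra the implied length was 3377 bases against a longest transcript of 8639, and for Il6st 5719 against 8678. Per base of the longest transcript, the medians were 6.32 FPKM for Il6st, 4.54 for Rora and 4.05 for Il6ra. Rora then overlapped Il6ra, with ranges of 3.67 to 4.82 and 2.96 to 5.29 FPKM. Il6st, at 5.29 to 7.54 FPKM, began just where Il6ra ended, and Il1r1 stayed below these 3 genes, at 0.115 to 0.381 FPKM. The implied lengths of Ccr6 and Il17f were 4243 and 1958 bases, against longest transcripts of 1755 and 1178. Per base of these, the median of Il17f was 0.193 FPKM, above that of Il22, 0.152. Ccr6, at 0.0632 to 0.222 FPKM, then overlapped Il1r1. Which transcripts the reads came from was not tested, and levels of a gene between libraries do not depend on this length.

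The cytokine genes Il17a, Il17f and Il22 had few reads. Il17a, the signature cytokine that makes epithelium and stroma recruit neutrophils, had 0, 0, 0, 12, 3 and 2 reads in libraries of 32435799 to 36316162 counted reads. It was therefore not detected in libraries 1, 2 and 3, where the floor of 3 reads was 0.0966, 0.0867 and 0.0860 CPM. Exact Clopper-Pearson 95% intervals of these counts of 0 reached 0.119, 0.107 and 0.106 CPM. Il17a was above the floor of 3 reads in library 4 only, at 0.316 CPM (exact Clopper-Pearson 95% interval 0.164 to 0.553). The counting interval of its ratio to a library with 0 reads began at 2.28. Libraries 4, 5 and 6 did not separate, since the interval of library 5 reached 0.252 CPM and that of library 6 reached 0.203.

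Il17f, the closest relative of Il17a and its partner in a joint dimer, had 11, 4, 18, 10, 6 and 4 reads and was above the floor in all 6 libraries. Its highest level was 0.516 CPM (0.306 to 0.816) in library 3 and its lowest 0.112 CPM (0.0306 to 0.288) in library 6. The intervals of 2 of 15 pairs of libraries did not overlap, those of library 3 against library 2 and library 6. Library 4 was the one library in which both cytokine genes passed the floor, and there Il17f had 0.833 reads per read of Il17a (95% interval 0.323 to 2.10). In libraries 1 and 3, Il17f had 11 and 18 reads and Il17a had none.

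Il22, a cytokine by which lymphocytes act on epithelial barriers, had 24, 2, 14, 9, 3 and 3 reads. Libraries 1 and 3 were the highest, at 0.772 CPM (0.495 to 1.15) and 0.402 CPM (0.220 to 0.674), and libraries 2, 5 and 6 were at or below the floor. Library 1 had 13.4 times the level of library 2, with a counting interval of 3.32 to 117. The intervals of 5 of 15 pairs did not overlap. Mouse Il22 has a near-identical copy in the reference genome, Iltifb, whose reads were not analysed here, so the source of the reads given to Il22 is uncertain.

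Il23r and Ccr6, surface receptors of Th17 cells, were as scarce. Il23r, the specific chain of the interleukin 23 receptor, had 4, 1, 1, 5, 5 and 12 reads. Library 6 was the highest, at 0.337 CPM (0.174 to 0.589), and libraries 2 and 3 were below the floor. The level of library 6 was 11.8 times that of library 3, with a counting interval of 1.74 to 503. Intervals of 2 of 15 pairs did not overlap, those of library 6 against libraries 2 and 3. Ccr6, the receptor for the chemokine CCL20 that draws Th17 cells and regulatory T cells to inflamed tissue, had 7, 10, 4, 8, 13 and 10 reads, or between 0.115 and 0.374 CPM. For Ccr6, 0 of 15 pairs of libraries had intervals that did not overlap. The ratio of library 5 to library 3 was 3.26, with a counting interval of 1.01 to 13.7. These libraries were picked as the highest and the lowest, which that interval does not allow for, so it does not show a difference. The transcript of its ligand, Ccl20, had 2, 16, 13, 12, 15 and 27 reads.

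**Figure D1:**
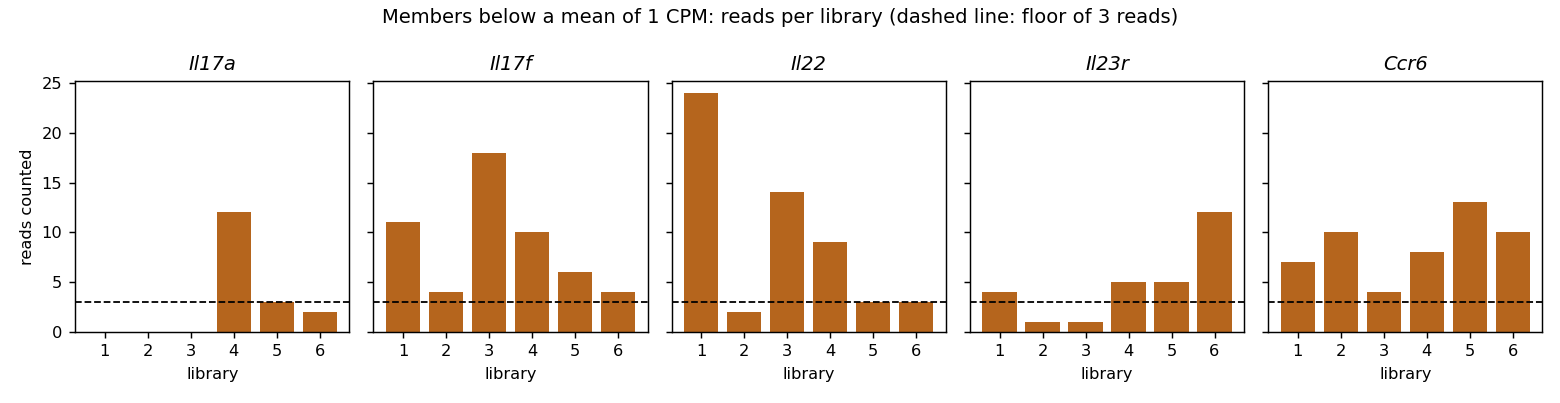
Reads counted per library (bars, vertical axis) for the 5 members averaging less than 1 CPM, in libraries 1 to 6 (horizontal axis), with a dashed line at the floor of 3 reads. Il17a has no reads in libraries 1, 2 and 3, and Il22 ranges from 2 reads in library 2 to 24 in library 1.

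Of the 9 members, 0 were at 3 reads or fewer in every library, and 3 (Il17a, Il22 and Il23r) were in at least 1 library, as were 37.7% of all genes listed. Of the 5 scarce members, 4 had at least 1 pair of libraries whose intervals did not overlap, all but Ccr6. Among all 4594 genes averaging less than 1 CPM but with at least 10 reads in total, 33.4% had such a pair. With so few members, these shares were not compared further.

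The receptor chains that pair with the scarce members were unequal. Il12rb1, the chain shared by the receptors for interleukins 12 and 23, stood at 374, 375, 376, 306, 318 and 330 CPM. In the 4 libraries with Il23r above the floor, Il12rb1 had from 437 to 1299 times the FPKM of Il23r. Il12rb2, which joins Il12rb1 in the interleukin 12 receptor, stood at 357, 335, 330, 153, 153 and 161 CPM, and was lower in libraries 4, 5 and 6. Il17ra, the common chain of the interleukin 17 receptors, ranged from 63.0 to 77.8 CPM, and its partner Il17rc had at most 2 reads. Il10rb, one chain of the interleukin 22 receptor, ranged from 37.9 to 46.5 CPM, while the other chain, Il22ra1, had 1 read in library 5 and none elsewhere.

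Il1r1 was the one measured member whose range over libraries reached 2-fold. It encodes the signalling receptor for interleukin 1 and stood at 2.32, 1.45, 1.49, 1.05, 1.18 and 0.647 CPM, from 72, 50, 52, 40, 41 and 23 reads. Library 1 was the highest and library 6 the lowest, and the other 4 overlapped each other in their intervals. The highest level was 3.58 times the lowest, with a counting interval of 2.21 to 6.01, or 3.37-fold on the log2 scale with a prior count of 2, which is used for ranges from here on. Of all 11516 measured genes, 10.5% ranged 2-fold or more, against 1 of the 4 measured members. Among genes averaging 10 CPM or more the share was 3.33%, so it was higher among measured genes below that level. Il1r1 is one of these, with a mean of 1.36 CPM, and the share for genes at its own level was not computed. Without library 1 the range of Il1r1 was 2.22-fold, without library 6 it was 2.13-fold, and on the FPKM scale with a pseudocount of 0.1 it was 2.21-fold.

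Il1r2, a decoy receptor that binds interleukin 1 without signalling, stood at 20.0, 17.7, 14.0, 12.5, 12.5 and 12.3 CPM, and like Il1r1 it was highest in library 1 and lowest in library 6. Per length it exceeded Il1r1 in every library, by 19.8, 28.1, 21.5, 27.2, 24.3 and 43.7 times in FPKM. The ratio of Il1r1 to Il1r2 was lowest in library 6, at 0.0229 (95% interval 0.0143 to 0.0347), and highest in library 1, at 0.0506 (0.0391 to 0.0646), and libraries 2 to 5 overlapped with library 1. Il1rap, the accessory chain needed for signalling, was lowest in library 2 and highest in library 6, with 7.85, 5.43, 6.57, 9.23, 10.3 and 10.3 CPM. Il1rn, the soluble antagonist, lay between 1.46 and 2.30 CPM. The ligand genes Il1a and Il1b had at most 2 and 8 reads in any library.

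The genes with the profile most like that of Il1r1 were Emp1, Plac8 and Pde2a. Likeness was the root mean square difference of log2 CPM over the 6 libraries after subtracting each gene's mean, among 8226 named genes averaging 10 CPM or more. The differences were 0.16, 0.24 and 0.25 log2 units. Emp1, an epithelial membrane protein gene, stood at 34.3, 22.1, 22.8, 18.2, 16.4 and 13.3 CPM, with library 1 highest and library 6 lowest as for Il1r1. It was picked for this likeness, so the shared order is no separate result. How far the counting error of Il1r1, at 23 to 72 reads, affects the choice was not tested.

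Il6ra and Il6st, the 2 chains of the interleukin 6 receptor, were the most abundant members per deposited FPKM, and both were higher in libraries 4, 5 and 6. Il6ra, the ligand-binding chain that naive and some regulatory T cells carry, stood at 28.9, 27.7, 26.4, 40.5, 43.7 and 42.1 CPM. The lowest of the 3 higher libraries had an interval of 38.5 to 42.6 CPM, and the highest of the other 3 one of 27.0 to 30.9. Between libraries 5 and 3, the highest and the lowest, Il6ra differed 1.66-fold (counting interval 1.53 to 1.80).

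Il6st, which encodes gp130, the signalling chain also used by leukaemia inhibitory factor, oncostatin M and interleukins 11 and 27, stood at 48.0, 49.9, 48.6, 62.6, 61.0 and 59.9 CPM. Its interval in library 6 ran from 57.4 to 62.5 CPM, above that of library 2, from 47.5 to 52.3. Libraries 4 and 1 differed 1.31-fold (1.22 to 1.39). For both genes, 9 of 15 pairs of libraries had intervals that did not overlap. At this depth such separation is common, and 85.0% of measured genes had at least 1 such pair. Of the 8371 genes averaging 10 CPM or more, 3.33% reached a 2-fold range, and 0 of the 3 such members, Il6ra, Il6st and Rora, did. A range of 1.5-fold was reached by 13.5% of these genes, and by Il6ra but not by Il6st or Rora. The largest gap between neighbouring values lay between libraries 1 to 3 and libraries 4 to 6 for Il6ra, Il6st and Rora, 3 of the 4 measured members, and for 34.8% of all measured genes. The share for genes at the level of these 3 was not computed.

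**Figure D2:**
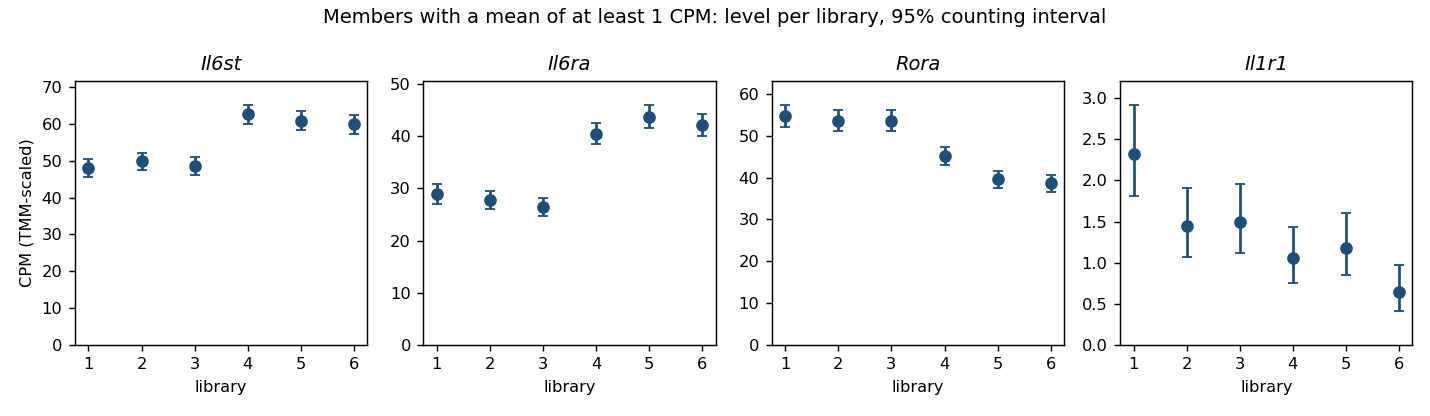
CPM per library (points, vertical axis from 0) with exact 95% counting intervals (bars) for the 4 measured members, in libraries 1 to 6 (horizontal axis). Il6st and Il6ra lie higher in libraries 4 to 6, Rora lies lower there, and Il1r1 is highest in library 1 and lowest in library 6.

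The balance of the 2 chains can be read within a library, without scaling between libraries. The ratio of Il6st to Il6ra in deposited FPKM was 0.980, 1.06, 1.09, 0.914, 0.823 and 0.840. The intervals of libraries 5 and 6 reached 0.879 and 0.898 and did not meet those of libraries 1, 2 and 3, whose lowest bound was 0.901. With the longest transcripts as lengths the ratios were 1.65, 1.79, 1.83, 1.54, 1.39 and 1.42, so that Il6st was higher than Il6ra in every library, while the order of the libraries was the same.

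**Figure D3:**
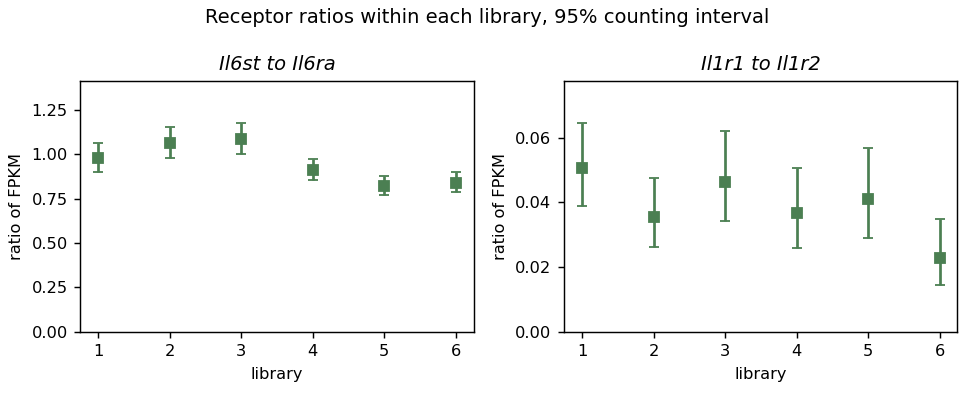
Ratio of FPKM of Il6st to Il6ra (left) and of Il1r1 to Il1r2 (right) in each library (squares, vertical axis from 0), with exact 95% counting intervals (bars). The first ratio is lowest in library 5, at 0.823, and the second is lowest in library 6, at 0.0229.

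Transcripts of other genes that act with gp130 differed in level, and signalling through it was not tested. Il6 itself had 16, 22, 14, 30, 34 and 43 reads, or 0.515, 0.636, 0.402, 0.791, 0.977 and 1.21 CPM, lowest in library 3 and highest in library 6. Lif, which encodes leukaemia inhibitory factor, was abundant, at 183, 198, 180, 273, 288 and 331 CPM, whereas its receptor gene Lifr had between 8 and 17 reads. The oncostatin M receptor gene Osmr had between 3 and 17 reads, and Cntfr had 1 read in all. Il27ra, the partner of gp130 for interleukin 27, lay between 47.2 and 55.1 CPM. Il11ra1 stood at 18.8, 19.1, 18.7, 10.9, 12.3 and 11.2 CPM, lower in libraries 4, 5 and 6, where Il6ra and Il6st were higher.

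Rora was the transcription factor of the set and was expressed in every library. It encodes ROR-alpha, a nuclear receptor that acts in Th17 cells, in tissue regulatory T cells and in innate lymphoid cells. It stood at 54.7, 53.6, 53.6, 45.2, 39.6 and 38.7 CPM, from 1375 to 1870 reads. Libraries 1, 2 and 3 overlapped each other, library 4 lay below them with an interval of 43.1 to 47.4, and libraries 5 and 6 lay lower still and overlapped each other. The intervals of 11 of 15 pairs did not overlap. Library 1 exceeded library 6 by 1.42-fold (1.32 to 1.52). With plain total counts the range was 1.31-fold.

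The other genes of the Th17 programme were taken from 7 lists of 94 names, of which 91 were found and 68 were measured genes. Of the 68, 11 ranged 2-fold or more, with a median range of 1.37-fold, against a median of 1.29-fold and the 10.5% given above for all genes. The 14 signal transducers of interleukins 6, 23 and 1 had the smallest median range of the 7 lists, 1.17-fold, and 0 of them reached 2-fold. Stat3, which carries the signal of gp130, was the most abundant of these and had the largest range, 1.65-fold, with 720 CPM in library 4 and 1186 CPM in library 2.

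Of 14 transcription factors in the list for this fate, all were measured and 2 ranged 2-fold or more. Satb1, a chromatin organiser, was the most abundant, from 1067 to 1575 CPM. Maf, a factor shared by Th17, follicular helper and regulatory T cells, ranged 2.26-fold. Basp1, a membrane-associated signalling protein gene that is no classical transcription factor, had the largest range, 2.56-fold, with 281, 272, 260, 110, 124 and 131 CPM. Of 13 restraining factors, 12 were measured and 0 of these reached 2-fold. Ets1 was the most abundant, from 518 to 722 CPM, and Id3 had the largest range, 1.86-fold, being 6.34 CPM in library 1 and 11.8 CPM in library 5.

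Of 10 inducing ligands, 9 were found and 3 were measured. Tgfb1 was the most abundant, from 152 to 184 CPM. Tgfb3, a form of transforming growth factor beta that can drive Th17 differentiation, had the largest range, 3.75-fold, with 90.4, 89.5, 81.1, 25.5, 24.1 and 26.7 CPM. Il21, a cytokine that Th17 and follicular helper cells make, lay between 64.8 and 88.7 CPM. Il23a, which encodes the specific chain of interleukin 23, had 8, 13, 36, 16, 32 and 42 reads. Of 12 effector products, 10 were found and 6 were measured. Lif was the most abundant of these by mean CPM. Csf2, which encodes a growth factor of myeloid cells, lay between 7.42 and 9.84 CPM, while Il10 (3.39-fold) and Il24 (2.30-fold) ranged 2-fold or more.

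Of 23 receptor partners and relatives, 14 were measured and 3 ranged 2-fold or more: Il12rb2, Il18rap and Il18r1. Il21r was the most abundant, from 347 to 477 CPM. Il18r1, a receptor chain for interleukin 18, ranged 3.47-fold, and was lowest in library 1, at 1.29 CPM, and highest in library 4, at 4.61 CPM. Of 11 homing and surface genes, 8 were measured and 3 ranged 2-fold or more: Ccr2, Cxcr3 and Itgae. Icos was the most abundant, from 178 to 307 CPM. Ccr2, a receptor by which inflammatory cells enter tissue, ranged 2.61-fold, with 11.3, 9.77, 9.18, 5.01, 4.63 and 4.27 CPM. Of the 11 pathway genes ranging 2-fold or more, 8 were higher in each of libraries 1 to 3 than in any of libraries 4 to 6 (Basp1, Ccr2, Il10, Il12rb2, Il24, Itgae, Maf and Tgfb3), and 3 were higher in each of libraries 4 to 6 (Cxcr3, Il18r1 and Il18rap). With total counts or Cd3 scaling, Itgae was in neither set. These genes were picked by their range, and how many of all genes ranging 2-fold or more split this way was not counted. The split is therefore not a result about the pathway genes.

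**Figure D4:**
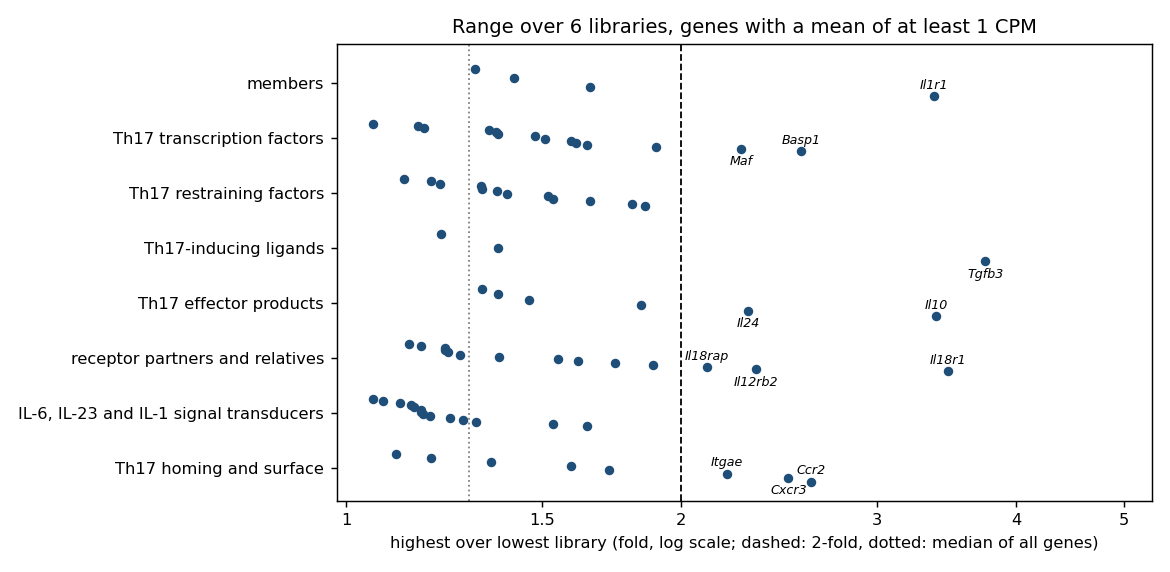
Range of each measured gene over the 6 libraries (points, log-scaled horizontal axis, highest over lowest library), by list (vertical axis), with a dashed line at 2-fold and a dotted line at the median of all genes, 1.29-fold. Il1r1 is the member beyond 2-fold, and the signal transducers lie closest to 1.

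All 6 libraries carried the defining transcripts of CD4+ T cells, and total counts were similar, from 32435799 to 36316162. The 5 markers of CD4+ T cells summed to between 1532 and 1919 CPM, with 0 of 5 ranging 2-fold. The series' design names regulatory T cells while each library is labelled CD4+ T cell, and Foxp3, the factor that defines regulatory T cells, lay between 7.37 and 13.4 CPM. Markers of other cells differed in level. The summed level of 6 macrophage or monocyte markers lay between 0.506 and 0.780 CPM, that of 4 natural killer cell markers between 0.369 and 0.515 CPM, and that of 4 fibroblast markers between 1.60 and 2.07 CPM, with Col1a2 and Col3a1 at 1 read or none in each library. The 2 markers of CD8 T cells summed to between 8.52 and 10.1 CPM, nearly all from Cd8b1. The 5 B cell markers summed to between 4.86 and 8.17 CPM, and 2 of them, Cd79a and Cd79b, ranged 2-fold or more. The 3 neutrophil markers found summed to between 0.0562 and 1.45 CPM, nearly all from Ly6g, with 44, 34, 45, 3, 7 and 2 reads. The other 2, S100a8 and Csf3r, had 1 read or none in each library. The 3 hepatocyte markers found summed to between 0.549 and 1.72 CPM. Of these, Afp had 10 to 53 reads, and Alb and Apoa1 had at most 5 and 4. Of 4 epithelial markers, Epcam stood at 40.6, 44.6 and 46.1 CPM in libraries 1 to 3 and between 13.4 and 14.0 CPM in libraries 4 to 6, and Krt18 stood at 4.57, 3.76 and 3.87 CPM in libraries 1 to 3 and between 1.29 and 1.72 CPM in libraries 4 to 6. Of the other 2, Cdh1 had at most 10 reads and Krt8 had 1 read or none in each library. Of markers used for innate lymphoid cells, Kit lay between 6.35 and 12.8 CPM, higher in libraries 1 to 3, and Ncr1 had 1 read or none. Il1rl1 went the other way, with 10, 10, 2, 14, 26 and 15 reads, or 0.0574 CPM in library 3 to 0.747 CPM in library 5. Their part in the values above was not tested, and in bulk RNA fewer cells of a type and less RNA per cell cannot be told apart.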

How the data were processed

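TRIzol extraction and VAHTS library preparation are stated, per the labels' protocols. Tools listed in the submitters' processing notes are fastp, HISAT2, HTSeq, DESeq2 and R 3.2.0, with the build GRCm39. Neither annotation nor strand setting is named there, so reads of overlapping or antisense genes cannot be told apart. The authors deposited raw read counts and FPKM values, both used as deposited. Counts were scaled by TMM in edgeR 4.0.16 (R 4.3.3), with factors from 0.958 to 1.04. Ranges are highest over lowest library on log2 CPM (prior count 2), for genes averaging 1 CPM or more. Intervals are exact Clopper-Pearson (95%); those of a ratio are conditional on the summed reads. Reads without molecular identifiers are not independent molecules. A floor of 3 reads was 0.0791 to 0.0966 CPM. No groups were formed and no test was made between libraries. Members and lists were chosen with earlier results of these data known. Named genes are all members, their receptor or ligand partners, each list's most abundant and most variable gene, and the 3 genes most like any member ranging 2-fold or more; others named were chosen after their values were seen. Results for 2 genes of the lists are not reported here. Alternatives were DESeq2 1.42.0 size factors, total counts, FPKM, other filters, floors and prior count, each library left out and, chosen after seeing the data, Cd3 scaling and GENCODE M21 lengths. The range procedure was tested on simulated counts. Python 3.11.15, pandas 2.3.3, scipy 1.17.1 and matplotlib 3.10.9 were used.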

Additional observations from a re-analysis of the deposited data

Results flagged for a closer look

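Of the 9 members, 2 had 1 library whose distance from the nearest other library was a larger share of the whole range than Dixon's 95% limit for 6 values. Il17a in library 4, at 0.316 CPM from 12 reads, stood apart by 0.727 of the range. Il23r in library 6, at 0.337 CPM, also from 12 reads, stood apart by 0.627. Il23r passed the limit only narrowly, and its counting interval in library 6 overlapped those of libraries 1, 4 and 5. For normally distributed values, chance alone flags about 1 in 20 such sets, and 9 were examined. The low and tied read counts of Il17a and Il23r do not meet that condition. The rate therefore does not apply to Il17a and Il23r, and no chance rate was computed for counts of this kind. The other 7 members had no such library. Both genes are near the detection floor, and whether these reads reflect the cells or the libraries was not tested.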

How the results depend on the processing

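The count of members ranging 2-fold or more was 1 with each scaling, prior count and FPKM alternative and with each library left out (1 to 1), and the gene was Il1r1 each time. It was 0 with a minimum mean of 5 CPM, which removes Il1r1, and 6 with no filter on low counts, where the share of all genes past 2-fold was 32.2%. The count of pathway genes was 11 of 68, between 8 and 14 in the other alternatives, and 10 with each library left out. The 8 were of 61 genes, with a minimum mean of 5 CPM, where 4.69% of all genes passed 2-fold. The 14 were of 68 genes, with Cd3 scaling and with total counts, where 11.2% of all genes passed with total counts. With no filter the count was 30 of 91, against the 32.2% of all genes. Ranges of Rora, Il6ra, Il6st and Il1r1 stayed on the same side of 2-fold in all alternatives run. Members at the floor in every library numbered 0, or 1 (Il17a) in the median library, and 0 to 1 with each library left out, where the 1 came without library 4. With the longest GENCODE M21 transcripts, medians became 4.54 FPKM for Rora, 4.05 for Il6ra and 6.32 for Il6st, and the median ratio of Il6st to Il6ra rose from 0.947 to 1.60, by the construction of that alternative. DESeq2 size factors moved the median of all genes by at most 0.02 log2 units in a library, total counts by 0.06 and Cd3 scaling by 0.11. Under Cd3 scaling the ranges were 1.86-fold for Il6ra, 1.51-fold for Il6st and 1.30-fold for Rora. No paired analysis was possible because the labels give no groups. Depth limits Il17a, Il17f, Il22, Il23r and Ccr6, whose reads allow no ordering of most libraries.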

Other observations

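The values of Il6ra, Il6st and Rora fell into separate sets of libraries. For Il6ra, the largest gap between neighbouring values lay between 28.9 CPM in library 1 and 40.5 CPM in library 4, and it took 66.8% of the whole range. For Il6st it lay between 49.9 CPM in library 2 and 59.9 CPM in library 6 and took 68.7%, and for Rora it lay between 45.2 CPM in library 4 and 53.6 CPM in library 3 and took 52.3%. For Il1r1 the largest gap set library 1 apart from the other 5. The largest gap separated libraries 1, 2 and 3 from libraries 4, 5 and 6 in 37 of the 68 measured pathway genes, or 54.4%, and in 34.8% of all 11516 measured genes. No share was computed for genes at the levels of the pathway genes, and the lists were chosen with earlier results of these data known. The 54.4% and 34.8% are therefore not a like comparison. The labels give no meaning to these sets.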
